A study of Rattus norvegicus with 8 samples.

Results

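Cd36, Ephx2 and Gstm1 are 3 genes known from the strain genetics of the spontaneously hypertensive rat (SHR). They were taken by Ensembl ID from the 32623 genes of a hippocampal RNA sequencing count table, in which Cd36 is ENSRNOG00000005906, Ephx2 is ENSRNOG00000017286 and Gstm1 is ENSRNOG00000029726. The symbols came with the choice of these IDs, because the count files list IDs alone. A count was present for 2 of the 3, Ephx2 and Gstm1, and the same 2 passed the filter on low counts.

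Hippocampal tissue of the inbred SHR, which develops high blood pressure, was compared with that of the Wistar-Kyoto rat (WKY), a normotensive strain of the same origin, both at 32 weeks of age. The labels name no transgene, and no agent other than the sodium pentobarbital that anesthetised all rats. There were 4 libraries per strain, and the labels do not say that each came from a separate animal, so p-values rest on the spread of libraries, which may be technical. The question put to the data was whether these genes differ in level between the strains in this tissue.

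CD36 is a membrane receptor that takes up long-chain fatty acids and binds oxidised lipoproteins and thrombospondin, and in brain it is best known from microvascular endothelium and microglia. Many SHR colonies carry a defective Cd36 gene that was mapped through fatty acid and insulin traits. Ephx2 encodes soluble epoxide hydrolase, which converts epoxyeicosatrienoic acids, lipid mediators that widen blood vessels, into less active diols, and in brain it is known from astrocytes and some neurons. Ephx2 variants and higher Ephx2 expression have been described in SHR, and inhibitors of the enzyme have been reported to lower blood pressure in this strain. Gstm1 encodes a mu-class glutathione transferase, which couples glutathione to reactive electrophiles, and reduced Gstm1 expression was described in the kidney of the stroke-prone SHR.

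The libraries held 45048841 to 49560687 counts in SHR and 53045139 to 53699673 in WKY, with no overlap, so total and strain cannot be told apart. WKY replicate 4 stood apart from the other WKY libraries across many genes, and each result below is given with and without it. Its chi-square per degree of freedom against them, over genes of 40 or more summed counts, was 80 to 111. Among themselves the other WKY libraries were at 34.7 to 41.6. SHR replicate 3 also stood apart, at 67.7 to 82.6 against the other SHR libraries, which were at 15.5 to 48.2 among themselves. The single-library table of WKY replicate 4 is headed WKY6, not WKY4, and its values are those of the matrix column WKY4. Leaving WKY replicate 4 out raised the number of genes that passed the edgeR quasi-likelihood test at an adjusted p under 0.05 from 6 of 16867 (0.0356%) to 458 of 17029 (2.69%). Of the 2 members tested, neither passed over 8 libraries, and Ephx2 passed without WKY replicate 4. None of the 176 genes of the pathway and cell type lists could be matched to an ID, so the tissue was not checked against markers and the partners of these genes are not described. In bulk tissue, fewer cells of a type and less RNA per cell cannot be told apart.

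Cd36 was listed at 0 in every library, at 0, 0, 0 and 0 counts in SHR replicates 1 to 4 and at 0, 0, 0 and 0 counts in WKY replicates 1 to 4. WKY replicate 4 was therefore no different from the others in this row, and no strain difference could be tested. A count of 0 allows a level of up to 3 counts per library, or 0.0605 to 0.0666 CPM (counts divided by library size, on a common scale) in SHR and 0.0559 to 0.0566 CPM in WKY, from counting error only. Cd36 was among the 10079 of the 32623 genes (30.9%) that were at 0 in all 8 libraries. In the RefSeq gene order of the GRCr8 assembly, a later build than the rn6 build of these counts, Cd36 on chromosome 4 is followed by the like-named genes Cd36l1 and Cd36-ps1. How the authors' counting divided reads between such neighbours is not given in the sources used here, and whether another row holds reads of Cd36 was not tested. With the WKY libraries at 0 as well, the row does not bear on the Cd36 defect of SHR.

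Ephx2 was several times higher in SHR than in WKY replicates 1 to 3, and WKY replicate 4 held the highest level of all 8 libraries. The Ephx2 counts were 673, 687, 1040 and 623 in SHR replicates 1 to 4. They were 90, 99, 82 and 1129 in WKY replicates 1 to 4. After scaling for library size by TMM (trimmed mean of M values), Ephx2 was at 15.5, 14.8, 20.3 and 12.98 CPM in SHR and at 1.70, 1.88, 1.54 and 21.1 CPM in WKY. Every SHR library lay above WKY replicates 1 to 3, the lowest of them 6.89-fold above the highest of these WKY libraries. WKY replicate 4 lay above the whole SHR range, so the 2 strains overlapped when all 8 libraries were used. Ephx2 encodes the hydrolase that removes epoxyeicosatrienoic acids, and its neighbours in the RefSeq gene order of GRCr8 chromosome 15 include Clu, which encodes the chaperone clusterin, and Chrna2, a nicotinic acetylcholine receptor subunit. The values of these neighbours could not be matched to IDs.

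**Figure D1:**
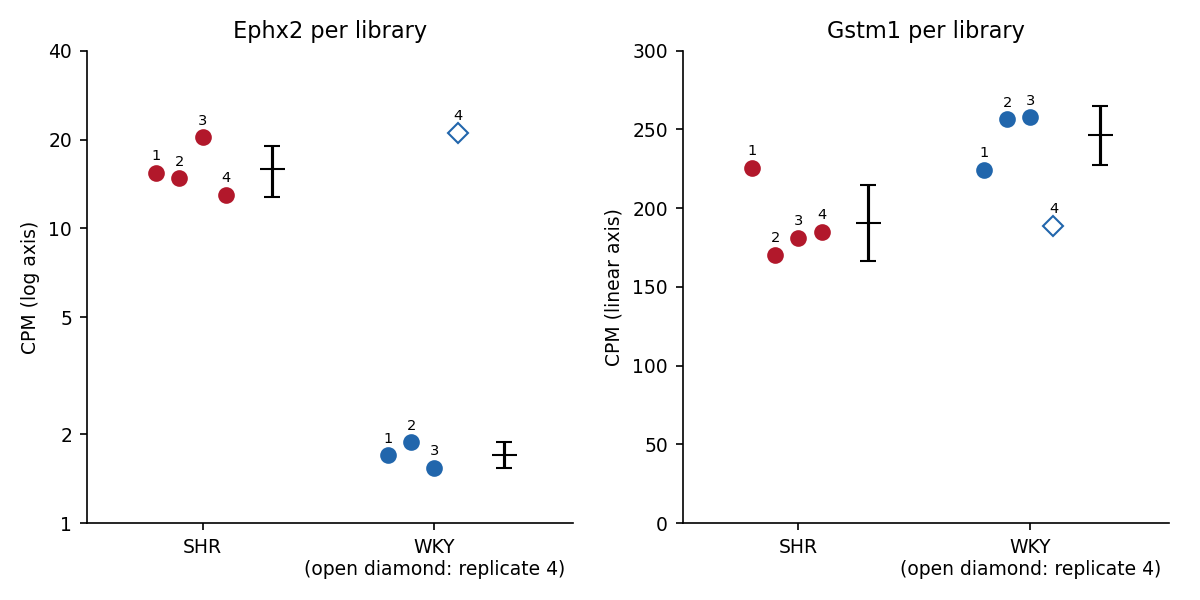
Level of Ephx2 (left, CPM on a log axis) and Gstm1 (right, CPM on a linear axis) in each library, with replicate numbers above the points; red points are SHR, blue points are WKY and the open diamond is WKY replicate 4. The horizontal marks and bars are the mean and SD of the 4 SHR libraries and of WKY replicates 1 to 3, without replicate 4. For Ephx2 WKY replicate 4 (21.1 CPM) lies above all 4 SHR libraries, and for Gstm1 (189 CPM) it lies within their range.

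Over all 8 libraries the mean level of Ephx2 was 15.9 ± 3.15 CPM for SHR (SD, n = 4) and 6.54 ± 9.67 CPM for WKY (SD, n = 4). The log2 fold change of 1.28 ± 0.78 (SE) missed the threshold (edgeR quasi-likelihood test, Benjamini-Hochberg adjusted p = 0.542; unadjusted p = 0.129). WKY replicates 1 to 3 alone were at 1.71 ± 0.172 CPM (SD, n = 3). Against them Ephx2 was 9.30-fold higher in SHR, a log2 fold change of 3.22 ± 0.19 (SE; edgeR, adjusted p = 2.32e-05), higher in 4 of 4 SHR libraries. Among the 197 genes that rose in SHR in that test, Ephx2 ranked 26 by fold change, and by p-value it ranked 10 among all 17029 genes. Levels of SHR above the range of WKY replicates 1 to 3, as seen for Ephx2, were found at 1377 of 16867 genes (8.16%). WKY replicate 4 itself was 12.3-fold above the mean of the other WKY libraries and 1.32-fold above the mean of SHR. The highest SHR library was 1.57-fold above the lowest. WKY replicate 4, at 21.1 CPM, lay just above the highest SHR library, SHR replicate 3, at 20.3 CPM.

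Set against all genes tested, whatever their level, the spread of Ephx2 was not extreme within SHR or within WKY replicates 1 to 3. It became large when WKY replicate 4 was added. Genes of a like level were not compared separately. The SD of its log2 CPM (with a prior count of 2) was 0.27 over the 4 SHR libraries, and 35.0% of the 16867 genes tested had a larger one. Over WKY replicates 1 to 3 the SD was 0.14, with 56.0% of genes more variable. Over all 4 WKY libraries it was 1.80, and only 179 genes (1.06%) were more variable. On the same log2 scale, with 0 at the mean of WKY replicates 1 to 3 and 1 at the mean of SHR, WKY replicate 4 had the position 1.13. SHR replicates 1 to 4, each left out of its own strain's mean, were at 0.992, 0.965, 1.16 and 0.889.

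**Figure D2:**
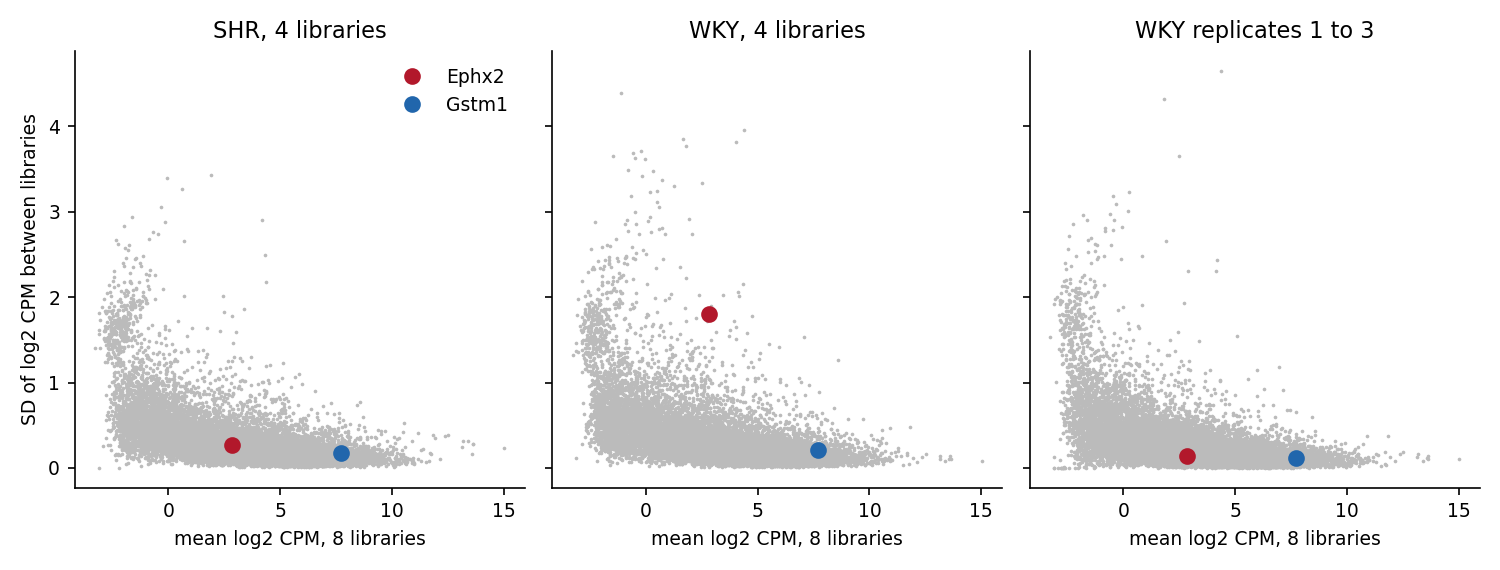
SD of log2 CPM between libraries (vertical axis) against the mean log2 CPM over 8 libraries (horizontal axis) for the 16867 genes tested (grey), with Ephx2 in red and Gstm1 in blue; the panels are the 4 SHR libraries, the 4 WKY libraries and WKY replicates 1 to 3. Ephx2 stands out in the middle panel, at an SD of 1.80, and lies in the body of the genes in the other panels, at 0.27 and 0.14.

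The estimate for Ephx2 over 8 libraries was positive under every setting run, and its size differed between settings. limma-voom gave a log2 fold change of 2.29 ± 0.60 (SE; adjusted p = 0.238). With sample quality weights limma-voom gave 2.69 ± 0.44 (SE; adjusted p = 0.0249), and 1.36% of genes passed under that setting. edgeR with the replicate number as a block gave 2.42 ± 0.75 (SE; adjusted p = 0.470). DESeq2 gave a log2 fold change of 1.28 ± 0.93 (SE) and no p-value, because the Cook's distance of WKY replicate 4 (25.5) was above its outlier cutoff (10.9). Without WKY replicate 4 the gene passed in all 13 settings run, 7 of them with a further library left out, at log2 fold changes of 3.08 to 3.30 and adjusted p-values up to 0.000533 (edgeR with the replicate number as a block). The library left out held the highest Ephx2 level of all, and was known to stand apart beforehand. All 13 settings reuse the remaining libraries, so their agreement is not independent support for a strain difference.

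**Figure D3:**
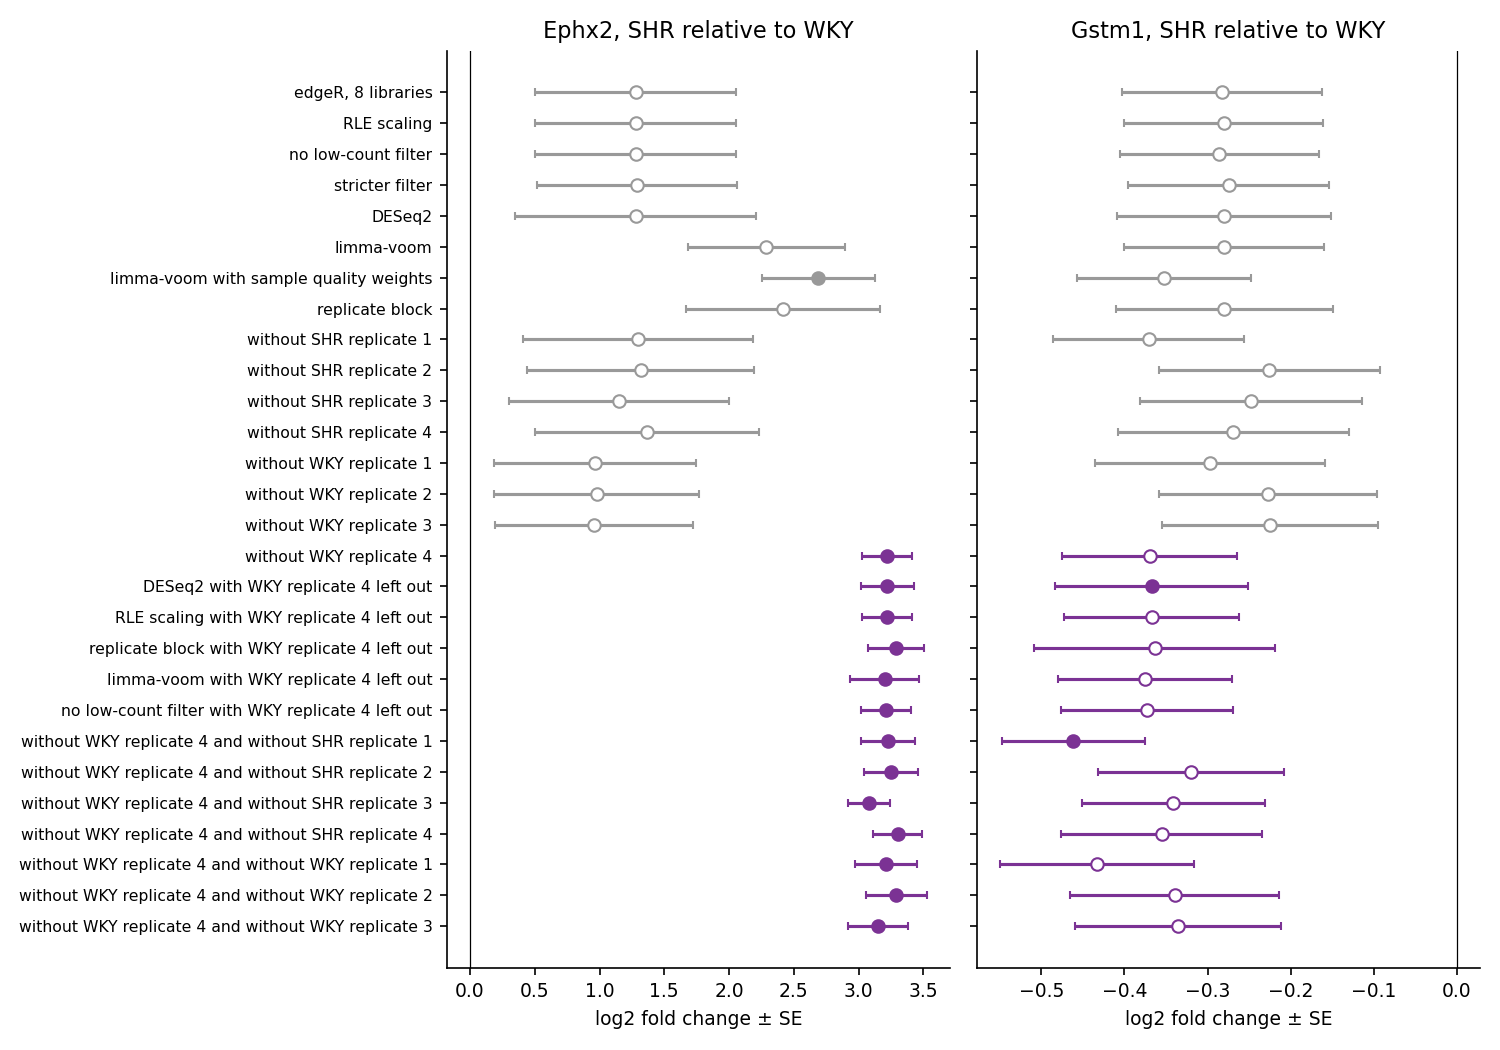
Log2 fold change of SHR relative to WKY with its SE (horizontal axes, unlike ranges) for Ephx2 (left) and Gstm1 (right) under each setting (rows); filled points passed an adjusted p of 0.05, open points did not or had no p-value, and purple marks settings without WKY replicate 4. Ephx2 lies at 3.08 to 3.30 in every purple row, and Gstm1 lies below 0 in every row, with 2 filled points.

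Gstm1 was slightly lower in most SHR libraries than in WKY replicates 1 to 3, and the difference did not pass the test. The Gstm1 counts were 9822, 7922, 9267 and 8883 in SHR replicates 1 to 4 and 11896, 13479, 13724 and 10129 in WKY replicates 1 to 4. This corresponds to 226, 171, 181 and 185 CPM in SHR and to 224, 257, 258 and 189 CPM in WKY. The strains overlapped with and without WKY replicate 4: SHR replicate 1, the highest of its strain, lay just above WKY replicate 1, the lowest of the other WKY libraries. WKY replicate 4 lay below the other WKY libraries and within the SHR range, at 0.991 times the SHR mean.

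Over all 8 libraries the mean level of Gstm1 was 191 ± 24.1 CPM for SHR (SD, n = 4) and 232 ± 32.6 CPM for WKY (SD, n = 4). The edgeR log2 fold change of -0.28 ± 0.12 (SE) missed the threshold (adjusted p = 0.388, unadjusted p = 0.0397). WKY replicates 1 to 3 were at 246 ± 19.0 CPM (SD, n = 3), 1.29 times the SHR mean. Without WKY replicate 4 edgeR gave -0.37 ± 0.11 (SE; adjusted p = 0.104), so the gene did not pass there either. On the scale from 0 at WKY replicates 1 to 3 to 1 at SHR, WKY replicate 4 was at 1.01, but SHR replicate 1 was at 0.269 and WKY replicate 1 at 0.447, so the scale separated the libraries poorly for this gene. The SD of log2 CPM was 0.17 in SHR and 0.21 in WKY. Of all genes tested, whatever their level, 56.5% and 46.4% were more variable, and genes of a like level were not compared separately.

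Gstm1 passed the threshold in 2 of the 13 settings without WKY replicate 4. DESeq2 gave a log2 fold change of -0.37 ± 0.12 (SE; adjusted p = 0.0286), under a setting in which 7.14% of genes passed. edgeR gave -0.46 ± 0.09 (SE; adjusted p = 0.0446) when SHR replicate 1 was also left out, where 1.34% of genes passed. With WKY replicate 4 in the fit, Gstm1 passed in 0 of 14 settings (edgeR, limma-voom and DESeq2; adjusted p from 0.106 to 0.743), and its direction did not change in any setting of either set.

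Gstm1 belongs to a cluster of like genes, which bears on its counts. RefSeq lists 9 protein-coding genes named Gstm on chromosome 2 of GRCr8, and Gstm2 and Gstm4, mu-class transferases as well, are the nearest protein-coding genes on either side of Gstm1. How the authors' counting shared reads between these copies is not given, so the level of Gstm1 is uncertain to that extent. Published strain differences at Gstm1 include its promoter in the stroke-prone SHR, so the RefSeq sequence before its start site is shown for orientation. It comes from the Brown Norway reference (GRCr8, chr2:198343384-198343633, minus strand), not from SHR or WKY, and gives 250 bases 5′ to 3′ up to the start, with a TATAAA match in capitals.
Gstm1: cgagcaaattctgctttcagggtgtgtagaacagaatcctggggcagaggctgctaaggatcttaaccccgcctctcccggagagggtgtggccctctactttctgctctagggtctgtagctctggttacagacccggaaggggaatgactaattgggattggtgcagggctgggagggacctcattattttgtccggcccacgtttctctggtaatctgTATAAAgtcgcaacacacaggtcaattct

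That TATAAA match, searched on both strands, begins 29 bases before the annotated start, and 12.9% of the 33469 RefSeq promoter windows of this length held one. TGACNNNGC, a core of the antioxidant response element through which glutathione transferase genes are known to be induced, had no match on either strand in these letters, and 10.1% of windows held one. These matches describe the reference letters, and the count data do not bear on them. The promoter table matched 2 of the 3 genes, Cd36 and Gstm1, and the Cd36 promoter is not shown because its row held no counts. Ephx2 had no entry.

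In the genes with the pattern most like Ephx2 across the 8 libraries, WKY replicate 4 lay within or above the SHR range, as the measure of likeness favours. Likeness was Pearson's r of log2 CPM over the 8 libraries, among 13472 other genes whose average log2 CPM reached 1. No symbol could be paired with these IDs. ENSRNOG00000047706 (r = 0.993) was at 11 to 15.3 CPM in SHR, with a median of 12.9, and at 2.31 to 2.64 CPM in WKY replicates 1 to 3. WKY replicate 4 was at 20.2 CPM, above every SHR library, as for Ephx2. ENSRNOG00000001699 (r = 0.992) was at 8.15 to 11.2 CPM in SHR, with a median of 9.49, at 0.301 to 0.396 CPM in WKY replicates 1 to 3 and at 9.87 CPM in WKY replicate 4, within the SHR range. These r values compare libraries that form 2 separate sets, WKY replicates 1 to 3 and the other 5, and are a description only.

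The 2 genes most like Gstm1 had small differences and overlapping ranges, as Gstm1 did, having been chosen for likeness to it. The next by r (0.982), not named here, did not overlap, at 1.51 to 2.16 CPM in SHR against 2.23 to 2.67 CPM in WKY replicates 1 to 3. ENSRNOG00000020922 (r = 0.989) was at 18.3 to 25.0 CPM in SHR, at 23.4 to 30.1 CPM in WKY replicates 1 to 3 and at 19.99 CPM in WKY replicate 4. ENSRNOG00000010121 (r = 0.987) was at 4.41 to 6.34 CPM in SHR, at 6.05 to 7.18 CPM in WKY replicates 1 to 3 and at 4.79 CPM in WKY replicate 4. In both named genes, as in Gstm1, SHR replicate 1 was the highest SHR library, WKY replicate 1 was the lowest of WKY replicates 1 to 3, and the ranges overlapped. None of the 3 passed the test without WKY replicate 4 (edgeR, adjusted p = 0.135, 0.275 and 0.283, in order of r).

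**Figure D4:**
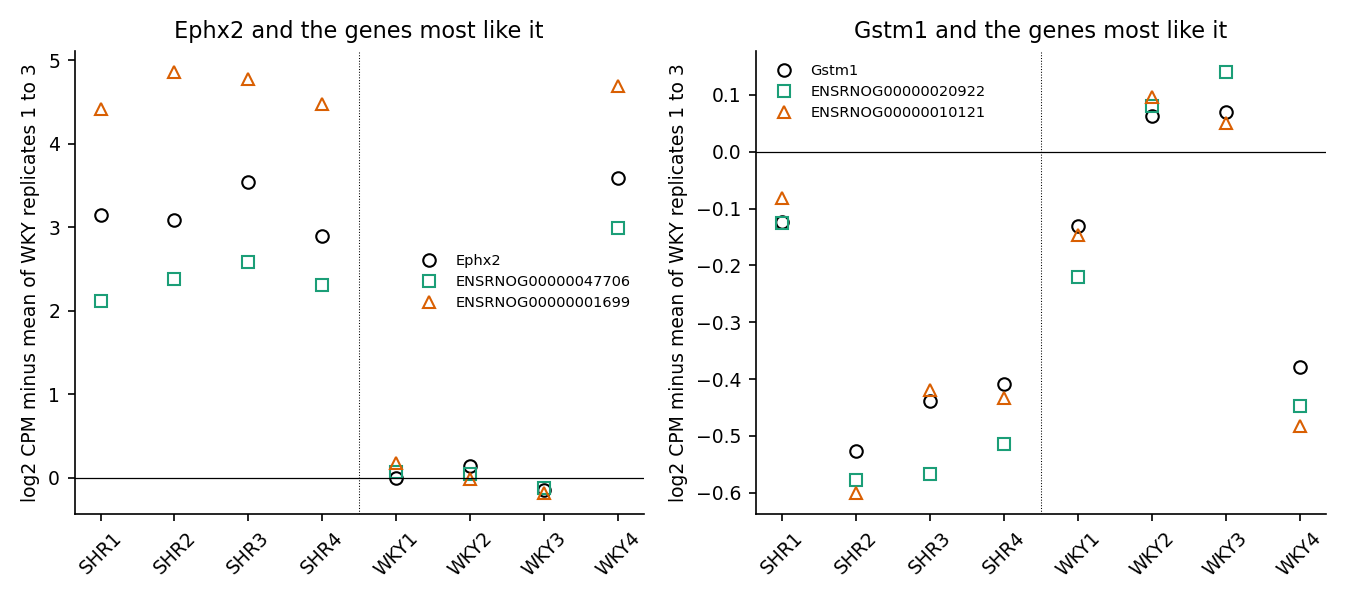
Log2 CPM of each library minus the mean of WKY replicates 1 to 3 (vertical axes, unlike ranges) for Ephx2 with its most similar genes (left) and Gstm1 with its most similar genes (right); the dotted line divides SHR from WKY libraries. On the left WKY replicate 4 lies above every SHR library for Ephx2 (3.60) and ENSRNOG00000047706 (2.99) and within the SHR range for ENSRNOG00000001699 (4.69), and on the right SHR replicate 1 and WKY replicate 1 lie between the other libraries.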

How the data were processed

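RNA from hippocampal tissue was sequenced in 4 SHR and 4 WKY libraries, grouped by sample title. The deposited values were raw counts, whole numbers for each gene, in 1 matrix and in 8 tables of 1 library each with identical content. The submitters' processing notes name build rn6 and the tools StringTie 1.3.4d, HISAT2 2.0.4 and cutadapt 1.9; the sources used here do not give the annotation release or the strand setting. The single tables titled WKY replicates 3 and 4 are headed 5 and 6, and those titled SHR replicates 3 and 4 are headed 4 and 6. The titles, which match the matrix columns by value, were used, also as replicate numbers in the block. Libraries of 1 strain differed by a chi-square per degree of freedom of at least 15.5, over genes of 40 or more summed counts, and none was treated as a duplicate.

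Counts were tested with edgeR 4.0.16 (R 4.3.3; quasi-likelihood F test, TMM scaling, default filterByExpr, strain as the only term, Benjamini-Hochberg adjustment over all genes tested, SHR relative to WKY), and the test was tested on simulated data. In that simulation all libraries of a strain had the same expected levels after scaling. It therefore does not show how the test behaves with a library set apart like WKY replicate 4. The SE was the log2 fold change divided by the square root of F. Alternatives were RLE scaling, other low-count filters, DESeq2 1.42.0, limma 3.58.1, the replicate number as a block and libraries left out. The members, lists and alternatives were chosen with earlier results of these data known; repeats without WKY replicate 4 that used limma, the block, no filter or a further library left out were added later, with the data in view. The rule for named genes took the 3 members, list genes that passed the test or were most abundant (none could be matched), gene neighbours, and the genes most like each member (at most 2 IDs higher and 2 lower in SHR, without symbols). The reference table (GRCr8) gave an Ensembl ID for 0 of its genes, so 5 pathway lists and 11 cell type lists were not tested. Same-numbered libraries had correlations of deviations from their strain means of -0.157 to -0.00338, so no pairing by number was detected. The means included WKY replicate 4 and SHR replicate 3, which stood apart, and some headers carry other numbers, so a pairing could have been missed. Figures were drawn with matplotlib 3.10.9.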

Additional observations from a re-analysis of the deposited data

Results flagged for a closer look

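The Ephx2 level of WKY replicate 4 (21.05 CPM) was set far above the rest of its strain: the gap to the nearest WKY library was 0.982 of the range of all 4, past Dixon's 95% critical value. Of the 4 sets of 4 libraries screened (Ephx2 and Gstm1 in each strain) this was the only one picked out. Chance picks about 1 in 20 for each set screened, so more often over all 4 sets. WKY replicate 4 was already known to stand apart, so the flag is a description only. What sets this library apart was not tested.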

How the results depend on the processing

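Over 8 libraries, the count of genes that differed (6) became 3 with no low-count filter and 334 in DESeq2. It became 230 in limma-voom with sample quality weights and 1 with the replicate block. When 1 library was left out it was 1 to 458, the highest without WKY replicate 4. It was 1 without SHR replicate 1, SHR replicate 4 or WKY replicate 1. It was 2 without SHR replicate 2, WKY replicate 2 or WKY replicate 3. With WKY replicate 4 left out it was 1216 in DESeq2, 449 with RLE scaling, 123 with the replicate block and 436 in limma-voom. It was then 302 with no low-count filter and 127 to 662 with a further library left out. Ephx2 (log2 fold change 1.28) passed with sample quality weights (2.69) and whenever WKY replicate 4 was left out: 3.22 in DESeq2, 3.22 with RLE scaling, 3.29 with the replicate block, 3.20 in limma-voom and 3.21 with no low-count filter. With 1 or a pair of libraries left out it ranged from 0.96 to 3.30. Over 8 libraries the block gave 2.42 (edgeR, adjusted p = 0.470) for Ephx2 and -0.28 (0.619) for Gstm1, and it changed neither call; DESeq2 gave Ephx2 no p-value. Gstm1 passed in DESeq2 without WKY replicate 4 (-0.37), and ranged from -0.46, where it also passed, without that library and SHR replicate 1, to -0.22 without WKY replicate 3. No direction reversed for Ephx2 or Gstm1. Where values moved, the cause was not tested beyond the library left out. Cd36 gave no value under any setting, since no library held a count. The 2 strains' libraries with the same number did not correlate best with each other in any of the 4 cases; the block and this comparison used the title numbers, which the headers of 4 tables contradict.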
